A study of Arabidopsis thaliana with 63 samples.

Results

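The elements described here are the transposable elements (TEs) that gave a substantial number of RNA-seq reads in wild-type (WT) Arabidopsis seedlings. They were chosen by their mean normalized count in WT, as the authors deposited it in the comparison of WT with h2a.w-2: every TE with a mean of at least 5 was taken. This selected on the WT level gives 141 of the 3091 TEs in the tables, which hold 29961 features in all (26870 genes and the TEs). A normalized count is the number of reads on a feature divided by a size factor for the depth of its library. It is not divided by the length of the element, so that levels of different TEs are compared here as reads and not per length.

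The 3 genotypes were each represented by 3 RNA-seq libraries of 10-day-old Col-0 seedlings. WT carried no mutation. The h2a.w-1 mutant combines the T-DNA allele hta6-1 with T-DNA alleles of HTA7 and HTA12, and it also carries a rearrangement, linked to hta6-1, that raises the dosage of a part of the right arm of chromosome 1. The h2a.w-2 mutant combines hta6-2, a frameshift allele made with CRISPR-Cas9, with the same hta7 and hta12 alleles and lacks the rearrangement. The mutants therefore share hta7 and hta12 and differ in the hta6 allele and the rearrangement, and each mutant is a single line. The RNA was made from whole seedlings, so a change in the number of cells that transcribe an element and a change in RNA per cell cannot be told apart. The study states that seedlings for each replicate were picked at random within a genotype from trays that may have been shared. The libraries of a genotype thus hold different plants that were not necessarily grown apart, and p-values measure the spread between these libraries.

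TEs are DNA sequences that can move or have moved within the genome, either through an RNA copy (retrotransposons) or by excision of the DNA (DNA transposons). Most plant TEs are kept silent in heterochromatin by DNA methylation in all sequence contexts, by methylation of histone H3 at lysine 9 and by small RNAs that guide DNA methylation. H2A.W is a histone H2A variant of flowering plants that marks this heterochromatin, and HTA6, HTA7 and HTA12 are the genes that encode it. A TE annotation can also yield reads without being active as a TE, for instance when it lies within or next to a transcribed gene. The tables identify each TE by its Araport11 identifier, in which the digit after AT is the chromosome and the number after TE rises along it. Positions, lengths, family names and sequences of the TEs were not used here, and whether reads of an element come from a gene it overlaps was not tested.

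The libraries differed in depth, and 1 of them went against its label for HTA12, though not for HTA6 and HTA7. Reads of single libraries were recovered from the deposited group means for 99.7% of the features, all TEs included, and came to between 5812579 and 9391308 reads in a library. The features without recovered reads are among the most abundant, and the recovered ones hold 88.4% to 89.7% of the summed means. The means carry no replicate numbers, so the letters A to C order the libraries of each genotype from the largest size factor to the smallest. HTA7 was at 11.4% to 15.2% of its WT mean in the mutant libraries. HTA6 was at 5.81% to 6.75% in h2a.w-1 and at 23.5% to 33.9% in the h2a.w-2-labelled libraries. HTA12 was at 17.3% to 23.1% in h2a.w-1, and at 26.7%, 108% and 25.8% in h2a.w-2-labelled libraries A, B and C. AT5G02570, a gene on the opposite strand that overlaps HTA12, may share its reads, which was not tested. Library B thus had HTA12 at the WT level, and the main tests and counts that rest on the h2a.w-2-labelled libraries are also given without it. Counts by unadjusted p-value, within 1.5-fold of WT and by the authors' means are given only with library B included.

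Reads on TEs were a small part of the recovered reads, and most of them lay on the 141 elements, which were chosen for their high WT reads. TEs counted as TE genes are not included. In the WT mean, these elements held 90.8% of all normalized counts on TEs. Summed over the elements, WT libraries A to C had 1290, 1300 and 1171 reads per 1000000 recovered reads (given here as CPM), a mean of 1254 ± 71.8 (SD, n = 3). The h2a.w-1 libraries had 1173, 1190 and 1306 CPM, with a mean of 1223 ± 72.4 (SD, n = 3), within and just above the range of WT. The h2a.w-2-labelled libraries had 1408, 1389 and 1344 CPM, with a mean of 1380 ± 32.9 (SD, n = 3). All h2a.w-2-labelled libraries lay above all WT and h2a.w-1 libraries in this sum, library B being the middle of the 3. No test was made of this sum, since WT reads chose its members.

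**Figure D1:**
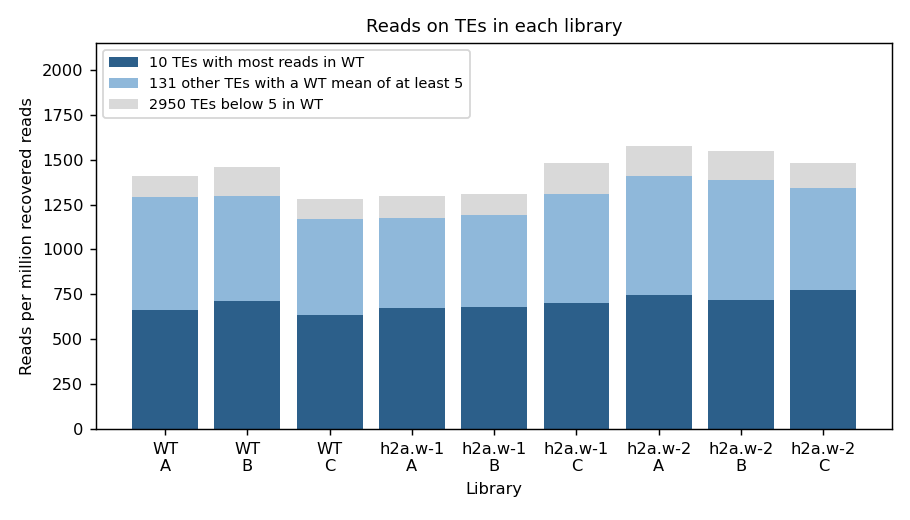
Stacked bars give the reads on TEs in CPM (vertical axis) in each of the 9 libraries (horizontal axis), split into the 10 TEs with most reads in WT, the other 131 TEs with a WT mean of at least 5, and the 2950 TEs below it. The 10 leading TEs hold 51.6% to 57.7% of the reads of the 141 elements in every library.

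The reads were concentrated on few elements. The leading TE, AT3TE69475, held 11.1% of the summed WT mean of the 141, the leading 3 held 27.2%, the leading 10 held 53.6% and the leading 20 held 71.7%. By WT mean, 4 elements lay at 500 or more, 19 between 100 and 500, 39 between 20 and 100, 30 between 10 and 20 and 49 between 5 and 10. The lowest of these bands thus held the most elements and only 3.72% of the summed level. By the chromosome in their identifiers, 28 of 635 TEs of chromosome 1 were among the 141, 27 of 607 of chromosome 2, 31 of 586 of chromosome 3, 24 of 572 of chromosome 4 and 31 of 691 of chromosome 5. These shares ran from 4.20% to 5.29% and were alike across chromosomes, but the leading 20 included 7 elements of chromosome 2, 6 of chromosome 3, 4 of chromosome 4, 2 of chromosome 1 and 1 of chromosome 5.

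In normalized counts, AT3TE69475 was at 1227, 1045 and 970 in WT libraries A to C. It was at 1191, 1303 and 1412 in h2a.w-1 and at 1022, 1225 and 1263 in the h2a.w-2-labelled libraries. It was the most abundant TE of every library, and its ranges overlapped between all genotypes. AT2TE37325 was at 849, 840 and 812 in WT, at 1068, 1144 and 834 in h2a.w-1 and at 881, 958 and 746 in the h2a.w-2-labelled libraries, ranges that also overlapped. For these leading elements, the means deposited by the authors in the h2a.w-2 table were 1068 in WT and 1154 in the mutant for AT3TE69475, and 824 and 850 for AT2TE37325. In the h2a.w-1 table they were 1116 in WT and 1345 in the mutant for AT3TE69475, and 860 and 1049 for AT2TE37325. The WT values differ between the tables because size factors were set separately in each, although the WT libraries are the same.

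The third element, AT3TE60870, had its lowest values in h2a.w-1. It was at 668, 761 and 761 in WT, at 331, 380 and 417 in h2a.w-1 and at 688, 675 and 802 in the h2a.w-2-labelled libraries. All h2a.w-1 libraries lay below the other 6. AT2TE73320, the tenth by WT level, had the same order, with 231, 289 and 226 in WT, 124, 147 and 124 in h2a.w-1 and 218, 228 and 255 in the h2a.w-2-labelled libraries. Their h2a.w-1 means were 51.5% and 52.8% of WT. AT2TE29775 went the other way, with 235, 233 and 243 in WT, 355, 346 and 406 in h2a.w-1 and 244, 253 and 185 in the h2a.w-2-labelled libraries. All h2a.w-1 libraries were above the other 6 for this element.

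AT5TE72200 and AT2TE20870 had their highest values in the h2a.w-2-labelled libraries. AT5TE72200 was at 533, 590 and 510 in WT, at 516, 431 and 451 in h2a.w-1 and at 743, 684 and 1171 in h2a.w-2-labelled libraries A, B and C. Library C was far above the other 2 here, and WT and h2a.w-1 overlapped. AT2TE20870 was at 372, 427 and 334 in WT, at 438, 423 and 576 in h2a.w-1 and at 536, 509 and 769 in the h2a.w-2-labelled libraries, where library C was again the highest. The ranges of the mutants overlapped for this element. AT2TE12510 was at 364, 492 and 396 in WT, at 404, 349 and 464 in h2a.w-1 and at 366, 330 and 210 in the h2a.w-2-labelled libraries, so that for this element library C was the lowest.

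Most of the leading elements in WT also led in the mutants. Of the 20 elements with the highest WT mean, 18 were among the 20 highest TEs in h2a.w-1 and 18 in the h2a.w-2-labelled libraries. AT3TE51150 and AT5TE72580 entered in both mutants, AT2TE07145 and AT4TE10320 left in h2a.w-1, and AT4TE10320 and AT2TE26610 left in the h2a.w-2-labelled libraries. AT3TE51150 moved from rank 43 in WT to rank 19 in h2a.w-1 and rank 10 in the h2a.w-2-labelled libraries. AT5TE72580 passed from rank 22 to rank 20 in both. Without library B, 17 of the 20 were shared, and AT3TE51150 was again at rank 10. Within the leading elements the order changed in places, with AT3TE60870 going from rank 3 to rank 8 and AT2TE73320 from rank 10 to rank 16 in h2a.w-1, and AT2TE12510 from rank 5 to rank 9 in h2a.w-2. Within WT, the leading 20 elements had a median coefficient of variation of 9.18% between libraries, from 2.19% for AT2TE29775 to 41.2% for AT2TE07145, so neighbours in the order often did not differ beyond their spread. For example AT4TE74230 and AT3TE58560 had WT means of 169 ± 13.7 and 169 ± 9.50 (SD, n = 3).

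**Figure D2:**
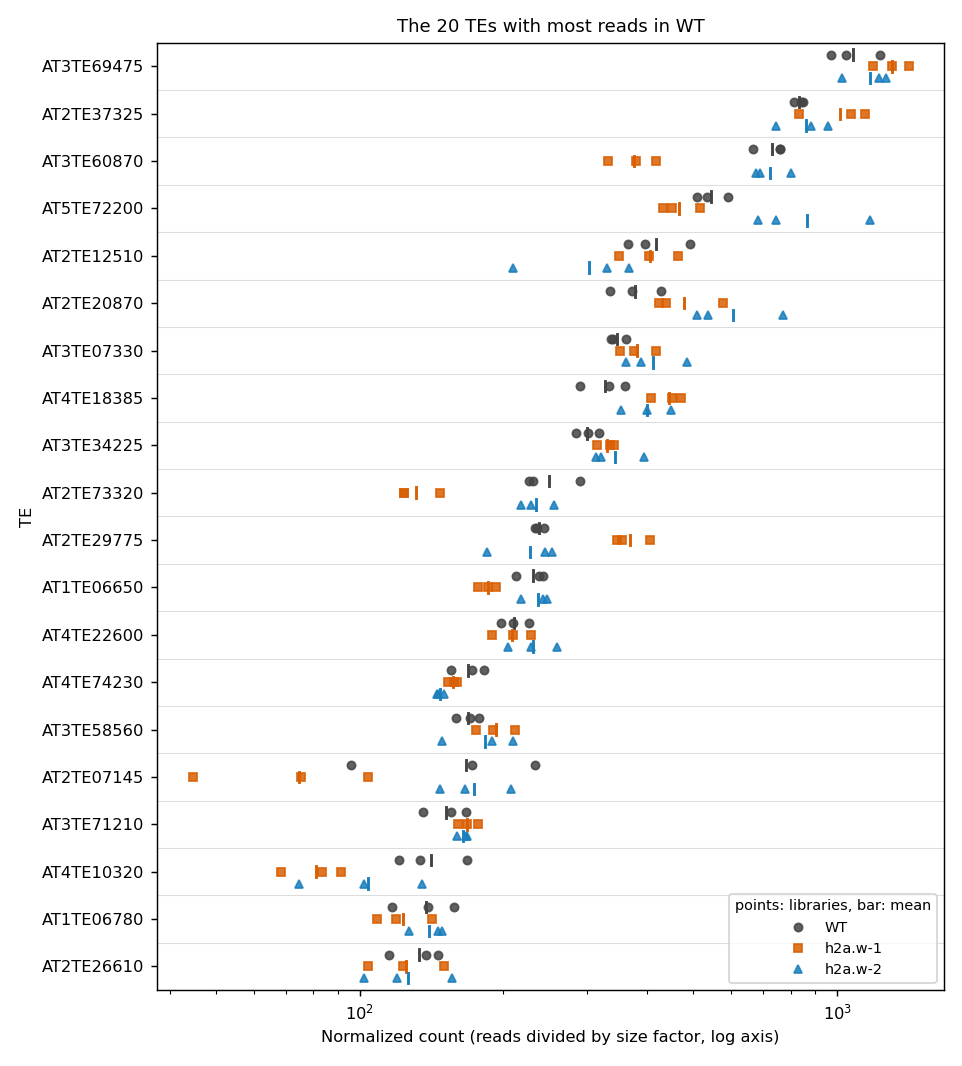
Normalized counts (horizontal log axis) of the 20 TEs with the highest WT mean, one row per TE, with points for the 3 libraries of each genotype and a bar for their mean. The h2a.w-1 libraries stand below the others for AT3TE60870 (331 to 417) and AT2TE73320 (124 to 147) and above them for AT2TE29775 (346 to 406).

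For each feature, the libraries were compared with limma voom, a linear model of log2 reads in which each read count is weighted by its expected precision. A feature counted as changed at an adjusted p-value (Benjamini-Hochberg, over the 22105 features tested) under 0.05 and a fold change of more than 2, a log2 fold change above 1 or below -1. All 141 elements passed the filter on low values, a mean normalized count of at least 1.5 over the 9 libraries. Their choice by a WT mean of at least 5 ensured this, whatever their level in the mutants. Other TEs passed the filter with a WT mean under 5, so they could rest more on mutant reads. Shares of the elements and of other TEs are therefore not shares of like sets. Because the WT libraries chose the elements, the comparisons with WT are a description, and only the comparison of the mutants with each other uses libraries that had no part in the choice. Both comparisons with WT use the same WT libraries.

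Between the h2a.w-2-labelled libraries and WT, 1 of the 141 elements was past both thresholds, and it was higher in the mutant (0.709%, beside 0.127% of all features tested that were higher and 0.0633% that were lower). No element was past them in the lower direction. An unadjusted p-value under 0.05 by limma voom was found for 15 of the 141 elements, beside 2972 of the 22105 features tested. Without the fold threshold the count was again 1, beside 0.285% of all features, and in either direction 0.190% of all features were past both thresholds. The element was AT3TE51150. It had 54, 38 and 25 reads in WT, 98, 182 and 87 in h2a.w-1 and 302, 253 and 169 in the h2a.w-2-labelled libraries, which are normalized counts of 44.9, 32.5 and 30.7, of 84.2, 173 and 99.5, and of 271, 241 and 242. The 3 genotypes did not overlap, with WT lowest and h2a.w-2 highest, and library B was like the other h2a.w-2-labelled libraries. The log2 fold change against WT was 2.79 ± 0.30 (SE, adjusted p = 0.00664, limma voom), a mean 6.98 times that of WT. Without library B it was 2.82 (adjusted p = 0.0191), and without WT library B it was 2.70 with an adjusted p of 0.0590, which is not past the threshold.

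Over the 141 elements, the median log2 fold change of h2a.w-2 against WT was 0.09, beside 0.00 over all features tested and 0.11 over the 159 other TEs tested. The value was above 0 for 85 elements (60.3%, beside 50.3% of all features tested) and below 0 for 56. Within 1.5-fold of WT lay 105 of the 141 elements, beside 18952 of the 22105 features tested, which were not matched to them by level. Among the 20 leading elements the values ran from -0.47 for AT2TE12510 to 0.65 for AT2TE20870. The standard deviation of these values was 0.30 both for elements at 500 or more and for those between 100 and 500, 0.67 between 20 and 100, 0.53 between 10 and 20 and 0.66 between 5 and 10. Elements below 100 were thus more scattered than those above it. Without library B, the median was 0.11, with 79 elements above 0.

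Between h2a.w-1 and WT, 6 elements were past both thresholds, 2 of them higher and 4 lower in the mutant. These are 1.42% and 2.84% of the elements, beside 1.65% and 2.58% of all features, and in either direction 4.26% beside 4.23%. Without the fold threshold 12 elements passed (8.51%), beside 13.3% of all features. They included AT3TE60870 (-0.96 ± 0.12, SE), AT2TE73320 (-0.92 ± 0.14), AT4TE10320 (-0.80 ± 0.22), AT2TE29775 (0.63 ± 0.12), AT1TE12135 (0.61 ± 0.18) and AT4TE18385 (0.44 ± 0.12), log2 fold changes of less than 2-fold. The median over the 141 was -0.10, beside -0.01 over all features and 0.20 over the other TEs tested. The value was above 0 for 60 elements (42.6%, beside 48.3% of all features) and below 0 for 81.

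AT5TE49855 had the lowest log2 fold change in h2a.w-1. It had 85, 52 and 28 reads in WT, 1, 1 and 7 in h2a.w-1 and 42, 65 and 36 in the h2a.w-2-labelled libraries. The h2a.w-1 libraries were far below the other 6, and WT and h2a.w-2 overlapped. The mean in h2a.w-1 was 6.56% of WT, with a log2 fold change of -4.40 ± 0.76 (SE), and its rank among TEs went from 36 in WT to 193 in h2a.w-1 and was 36 in the h2a.w-2-labelled libraries. It was past both thresholds in h2a.w-1 without any single library and under every other setting tried.

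AT5TE36475 had 45, 32 and 17 reads in WT, 2, 0 and 6 in h2a.w-1 and 20, 11 and 4 in the h2a.w-2-labelled libraries. Once divided by the size factors, every mutant library lay below WT, and the mutants overlapped each other. The log2 fold change in h2a.w-1 was -3.95 ± 0.80 (SE). Without h2a.w-1 library A, its adjusted p was 0.0546 by limma voom and it no longer passed. Its neighbour in number, AT5TE36470, had 284, 71 and 68 reads in WT, 8, 11 and 72 in h2a.w-1 and 148, 102 and 41 in the h2a.w-2-labelled libraries. Its libraries differed widely within each genotype, and its log2 fold change of -2.69 ± 0.88 in h2a.w-1 did not pass (adjusted p = 0.0720, limma voom). Elements annotated next to each other may share reads of the same transcript, which was not tested.

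AT1TE54100 had normalized counts of 39.9, 39.3 and 34.3 in WT, of 6.01, 9.52 and 12.6 in h2a.w-1 and of 20.6, 12.4 and 17.2 in the h2a.w-2-labelled libraries. Its WT libraries were close together and above all mutant libraries, and the mutants overlapped by a narrow margin. The log2 fold change was -2.07 ± 0.32 (SE) in h2a.w-1 and -1.19 ± 0.28 in h2a.w-2, where it did not pass (adjusted p = 0.165, limma voom). AT2TE50950 was at 117, 101 and 87.1 in WT, at 37.8, 36.2 and 37.7 in h2a.w-1 and at 73.6, 64.9 and 54.4 in the h2a.w-2-labelled libraries. The genotypes did not overlap, with h2a.w-1 lowest and WT highest. Its log2 fold change was -1.44 ± 0.19 (SE) in h2a.w-1, past both thresholds, and -0.65 ± 0.16 in h2a.w-2, not past them (adjusted p = 0.203).

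Of the elements higher in h2a.w-1, AT3TE51150 had a log2 fold change of 1.63 ± 0.32 (SE), with the reads given above. AT4TE33010 was at 18.3, 23.9 and 29.4 in WT, at 73.0, 63.8 and 99.5 in h2a.w-1 and at 12.6, 48.7 and 45.8 in h2a.w-2-labelled libraries A, B and C. The h2a.w-1 libraries lay above all others, and library A labelled h2a.w-2 was below WT while B and C were above it. Its log2 fold change in h2a.w-1 was 1.72 ± 0.44 (SE, adjusted p = 0.0281, limma voom). The call was lost when WT library A, B or C or h2a.w-1 library A or C was left out, with adjusted p-values of up to 0.0888.

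By the authors' means, 20 elements lay under the mean of 5 in h2a.w-1 and 14 in h2a.w-2, whereas 144 TEs in all reached 5 in h2a.w-1 and 151 in h2a.w-2. The elements chosen in WT had to reach 5 there, and those just above it had few reads. Of the elements with a WT mean of 10 or more, 6 were under 5 in h2a.w-1 and 0 in h2a.w-2. They were AT5TE49855, AT5TE36475, AT2TE12755, AT1TE32095, AT1TE19730 and AT1TE23420, named after their values were seen. Their authors' means were 2.59 to 4.92 in h2a.w-1 and 5.82 to 49.7 in h2a.w-2. AT2TE12755 (30.8, 6.84 and 8.59 in WT) and AT1TE23420 (20.8, 6.84 and 4.91) exceeded 10 in WT library A only. In h2a.w-2-labelled libraries A, B and C, AT2TE12755 was at 6.28, 11.4 and 0 and AT1TE32095 at 9.87, 86.8 and 2.86, so library B was the highest for both. These counts cut on the WT mean, were not repeated without library B and have no share over all features beside them.

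**Figure D3:**
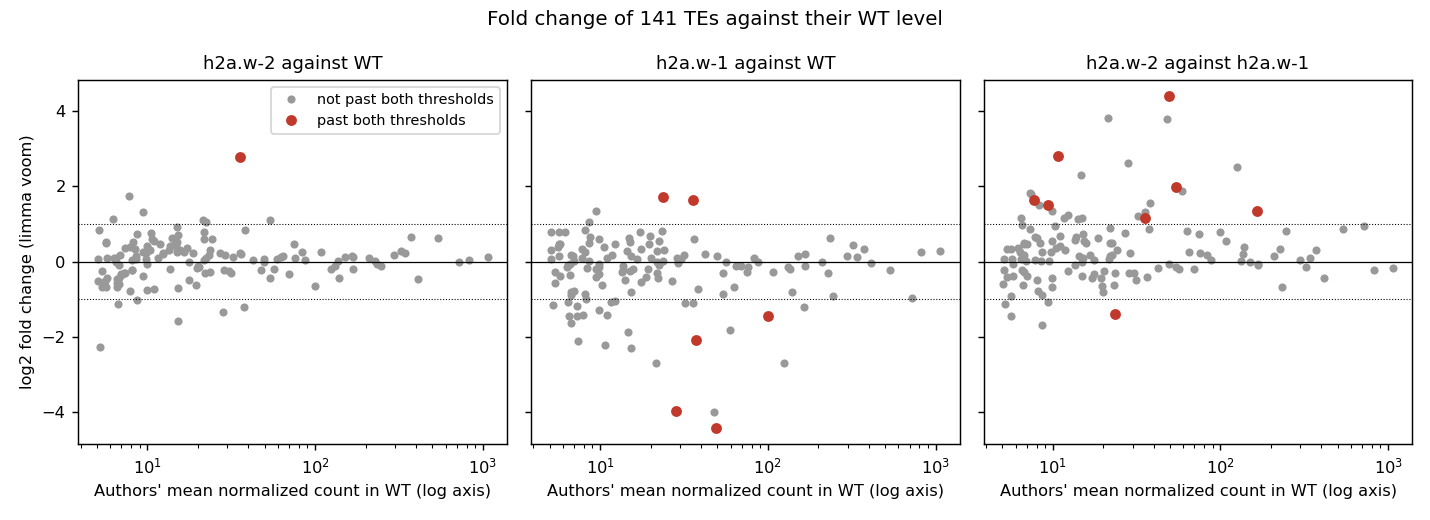
Each point is 1 of the 141 TEs, with the authors' mean normalized count in WT on a horizontal log axis and the log2 fold change by limma voom on the vertical axis, in 3 panels for h2a.w-2 against WT, h2a.w-1 against WT and h2a.w-2 against h2a.w-1. Dotted lines mark log2 fold changes of 1 and -1, and red points are the 1, 6 and 8 elements past both thresholds.

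The comparison of the mutants with each other asks whether elements differ between lines that both lack H2A.W. Its libraries had no part in the choice of elements, although the spread was estimated over all 9 libraries. The choice by WT level can still favour elements that fell from it in a single mutant over elements that rose in a single mutant. Between the h2a.w-2-labelled libraries and h2a.w-1, 8 elements passed both thresholds. Of these, 7 (4.96%) were higher in h2a.w-2, beside 3.74% of all features, and 1 (0.709%) was lower, beside 1.97%. Among the 159 other TEs tested, 1 (0.629%) was higher and 7 (4.40%) were lower past both thresholds. The direction of the split among the elements therefore cannot be told apart from their choice by WT level. In either direction the shares were 5.67% of the elements and 5.71% of all features, and without the fold threshold 15 elements (10.6%) passed beside 16.4%. The groups did not overlap for 27 elements that were higher in h2a.w-2 (19.1%, beside 17.9% of all features) and for 11 that were lower (7.80%, beside 17.6%). The share of higher elements was thus close to that of all features, and the share of lower elements was below it. Of the 159 other TEs tested, 12.6% were higher and 10.1% lower without overlap, so their lower share was also below that of all features. The elements were not compared with features of like read level. The median log2 fold change was 0.20 over the 141, beside 0.00 over all features and -0.11 over the other TEs tested. It was above 0 for 92 elements (65.2%, beside 50.0% of all features and 47.2% of the other TEs tested) and below 0 for 49. Without library B, 6 elements were higher and 1 lower past both thresholds, of which 5 were also among the 8, and 11 passed without the fold threshold. These counts have no share over all features beside them, so they cannot be read as above or below that share. The median was then 0.22, beside 0.01 over all features, with 89 elements above 0. With only 2 libraries left in h2a.w-2, the groups did not overlap for 37 higher elements (26.2%, beside 22.0% of all features) and 15 lower ones (10.6%, beside 21.7%).

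AT5TE49855 had the largest difference between the mutants, with a log2 fold change of 4.39 ± 0.76 (SE, adjusted p = 0.00461, limma voom). Its mean was 50.4 ± 12.2 (SD, n = 3) in the h2a.w-2-labelled libraries and 3.27 ± 4.10 in h2a.w-1, and the groups did not overlap. Without library B the value was 4.19 (adjusted p = 0.00925). AT3TE51150 was also higher in h2a.w-2, with 251 ± 17.0 against 119 ± 47.7 (SD, n = 3), a log2 fold change of 1.15 ± 0.22 (SE, adjusted p = 0.00660). Without h2a.w-1 library A its log2 fold change was 0.91, below the fold threshold (adjusted p = 0.0347). Without library B it was 1.19 (adjusted p = 0.0150).

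AT5TE50260 was at 119, 89.7 and 163 in the h2a.w-2-labelled libraries, at 22.3, 20 and 64.0 in h2a.w-1 and at 53.3, 80.3 and 30.7 in WT. Its h2a.w-2 libraries lay above all others, and WT and h2a.w-1 overlapped. The log2 fold change between the mutants was 1.98 ± 0.44 (SE, adjusted p = 0.0132, limma voom), and 2.20 without library B (adjusted p = 0.0125). The call was lost without h2a.w-1 library A or B, with an adjusted p of up to 0.0736. AT2TE07145, the only one of the 20 leading elements past both thresholds between the mutants, was at 166, 208 and 147 in the h2a.w-2-labelled libraries, at 44.7, 75.2 and 104 in h2a.w-1 and at 233, 95.7 and 172 in WT. The mutants did not overlap, and the WT range covered that of h2a.w-2 and reached into that of h2a.w-1. Its log2 fold change was 1.35 ± 0.38 (SE, adjusted p = 0.0372), and it was not past the thresholds without any 1 of the 6 mutant libraries other than h2a.w-1 library C, with 1.21 and an adjusted p of 0.0953 without library B.

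The other elements that were higher in h2a.w-2 had few reads. AT1TE23420 had 15, 14 and 13 reads in the h2a.w-2-labelled libraries, 1, 1 and 5 in h2a.w-1 and 25, 8 and 4 in WT, where library A stood apart. Its log2 fold change between the mutants was 2.81 ± 0.74 (SE, adjusted p = 0.0271, limma voom), and the call was lost without h2a.w-1 library A or B or h2a.w-2 library C. Without library B it was 2.88 (adjusted p = 0.0453). AT2TE74400 had 21, 23 and 26 reads in the h2a.w-2-labelled libraries, 9, 7 and 9 in h2a.w-1 and 12, 16 and 4 in WT, with h2a.w-2 above all others. Its log2 fold change was 1.51 ± 0.41 (SE, adjusted p = 0.0323), and without library B it was 1.58 with an adjusted p of 0.0543. AT1TE53350 had 30, 32 and 12 reads in the h2a.w-2-labelled libraries, 6, 10 and 9 in h2a.w-1 and 11, 14 and 2 in WT. After division by the size factors the h2a.w-2 libraries were above all others, and the log2 fold change was 1.63 ± 0.46 (SE, adjusted p = 0.0381). Without library B it was 1.48, with an adjusted p of 0.0949. For both of the latter, WT and h2a.w-1 overlapped, and AT2TE74400 lost its call in 5 settings and AT1TE53350 in 7 of the 16 tried.

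AT4TE33010 was the element that was lower in h2a.w-2 than in h2a.w-1, with a log2 fold change of -1.40 ± 0.42 (SE, adjusted p = 0.0451, limma voom) and the values given above. It passed in 5 of 16 other settings, and without library B the value was -1.82 (adjusted p = 0.0292). A further 7 elements passed the test but not the fold threshold. AT3TE60870 (0.94 ± 0.12, SE), AT5TE72200 (0.86 ± 0.18), AT2TE73320 (0.82 ± 0.14), AT2TE50950 (0.80 ± 0.20), AT5TE17350 (0.73 ± 0.14) and AT3TE71740 (0.89 ± 0.26) were higher in h2a.w-2, and AT2TE29775 (-0.68 ± 0.13) was lower. Without library B, AT2TE50950 did not pass the test (0.80, adjusted p = 0.0531), while AT5TE72200 (1.01, adjusted p = 0.00819) and AT3TE71740 (1.03, adjusted p = 0.0387) were past both thresholds. The other 4 again passed the test alone, with log2 fold changes of 0.99, 0.83, 0.73 and -0.76 for AT3TE60870, AT2TE73320, AT5TE17350 and AT2TE29775. AT3TE60870, AT5TE72200, AT2TE73320 and AT2TE29775 are among the leading elements, and for them a difference of under 2-fold exceeded the spread between libraries.

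**Figure D4:**
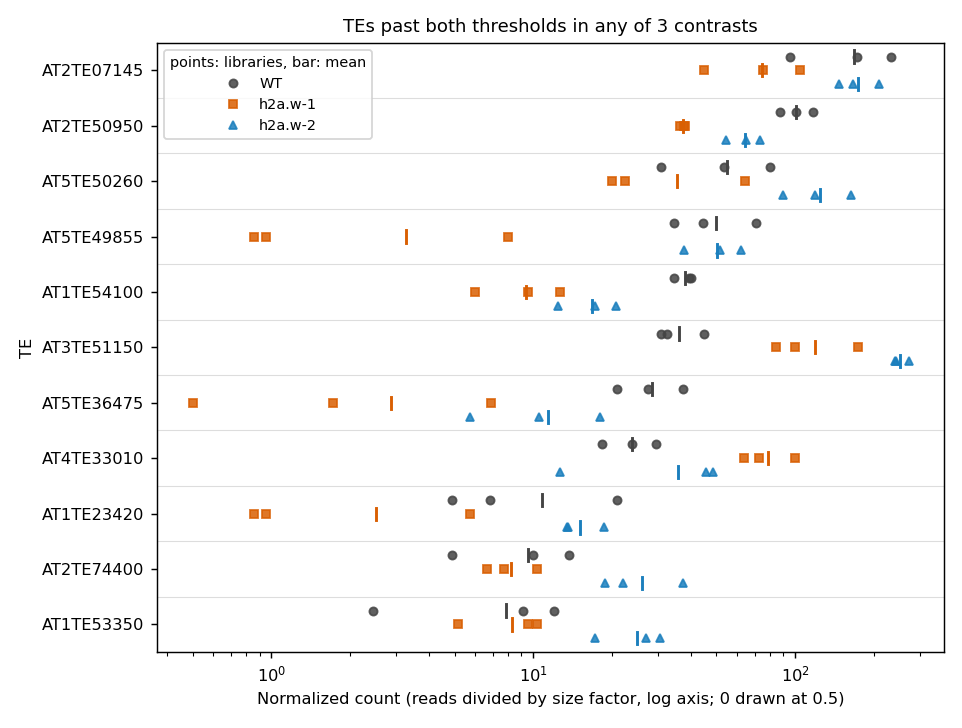
Normalized counts (horizontal log axis, a count of 0 drawn at 0.5) of the 11 TEs past both thresholds in any of the 3 comparisons, with points for the libraries of each genotype and a bar for their mean. AT5TE49855 is lowest in h2a.w-1 (0.859 to 8.01), and AT3TE51150 is lowest in WT (30.7 to 44.9) and highest in the h2a.w-2-labelled libraries (241 to 271).

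TEs from AT1TE80825 to AT1TE87630 span a part of chromosome 1 with raised copy number in h2a.w-1, and AT1TE83580 and AT1TE86740 have numbers within this span. AT1TE83580 was at 15.8, 24.8 and 18.4 in WT, at 22.3, 14.3 and 14.9 in h2a.w-1 and at 14.4, 12.4 and 10.0 in the h2a.w-2-labelled libraries. AT1TE86740 was at 15.8, 11.1 and 23.3 in WT, at 19.8, 11.4 and 19.4 in h2a.w-1 and at 22.4, 17.2 and 15.7 in the h2a.w-2-labelled libraries. The mutants overlapped for both elements. The log2 differences of h2a.w-1 from h2a.w-2 were 0.44 and -0.19, with adjusted p-values of 0.420 and 0.772 by limma voom. Adjacent numbers also occurred in AT3TE43610 and AT3TE43615, which were at 19.1 ± 3.39 and 42.1 ± 14.0 (SD, n = 3) in h2a.w-1 and at 32.3 ± 3.54 and 73.8 ± 19.5 in the h2a.w-2-labelled libraries, without passing the test (adjusted p = 0.118 and 0.0979).

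For some elements, 1 library stood far above the others of its genotype. Among elements with a group mean of at least 10, 5 of 95 in WT library A (5.26%) were more than 3 times as high as in both other WT libraries. The share was 0.495% of all features with a mean of at least 10, which were not matched to the elements by level. The 5 elements were AT2TE19685 (101 in library A against 24.8 and 19.6), AT1TE65160 (53.3 against 12 and 0), AT1TE56695 (37.4 against 12 and 11), AT2TE12755 (30.8 against 6.84 and 8.59) and AT1TE23420 (20.8 against 6.84 and 4.91). WT libraries B and C had 0 such elements. The WT libraries chose the elements, and 1 high WT library could bring an element in, so the WT shares are a description. In library B labelled h2a.w-2, the library with HTA12 at the WT level, there were 4 of 102 (3.92%, beside 0.557% of all features). AT5TE80015 was at 216 there and at 52.1 and 14.3 in libraries A and C, AT2TE56040 at 221 against 49.4 and 21.5, AT1TE32095 at 86.8 against 9.87 and 2.86, and AT1TE69975 at 42.0 against 3.59 and 11.5. None of these 4 elements passed the test in any comparison. In h2a.w-1 library C there were 2, AT5TE36470 and AT2TE35840, and in h2a.w-2 library C there was 1, AT4TE21090. These elements were named after their values were seen.

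At the threshold itself, AT4TE25325, AT3TE76010, AT3TE18490, AT5TE91850 and AT3TE63405 lay just inside with WT means of 5.36, 5.21, 5.11, 5.10 and 5.06. AT5TE32420 and AT5TE88530 (both 4.85), AT5TE46580 (4.81), AT5TE38700 (4.80) and AT1TE30555 (4.79) lay just outside. Each had from 1 to 9 reads in a WT library, so which side of 5 they fall on rests on a few reads. Of the elements just inside, AT3TE76010 had 5, 5 and 6 reads in WT, 2, 2 and 2 in h2a.w-1 and 0, 4 and 0 in the h2a.w-2-labelled libraries.

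A list of 20 genes chosen from general knowledge was set beside the elements. It holds genes that silence TEs, and also ROS1, which acts against DNA methylation. None of the 20 passed both thresholds in any comparison, and the medians of their log2 fold changes were 0.04 for h2a.w-2 against WT, 0.21 for h2a.w-1 against WT and -0.23 between the mutants. The DNA glycosylase gene ROS1, which removes DNA methylation and whose transcription is known to depend on DNA methylation in its promoter, was at 54.9%, 55.7% and 46.2% of the WT mean in the h2a.w-2-labelled libraries and at 88.7% to 104% in h2a.w-1. Its log2 fold change was -0.93 ± 0.11 (SE, adjusted p = 0.0110, limma voom) in h2a.w-2 against WT and -0.85 ± 0.11 (adjusted p = 0.00156) against h2a.w-1, past the test but not the fold threshold. Without library B these were -0.98 (adjusted p = 0.0277) and -0.89 (adjusted p = 0.00361). NRPE1, the largest subunit of RNA polymerase V, and RDR2, the RNA-dependent RNA polymerase of the small RNA pathway, passed the test in h2a.w-1 against WT with log2 fold changes of 0.59 ± 0.14 and 0.57 ± 0.13. The chromatin remodeller DDM1, whose loss releases many TEs, was at 105% to 113% of WT in h2a.w-1 and at 107%, 91.3% and 47.4% in h2a.w-2-labelled libraries A, B and C. The CHG methyltransferase gene CMT3 lies in the region that the study found duplicated in h2a.w-1. It was at 109% to 122% of WT in h2a.w-1, a log2 fold change of 0.23 ± 0.17 that did not pass (adjusted p = 0.405, limma voom). By RT-qPCR, the study found CMT3 mRNA significantly raised in h2a.w-1 plants with extra copies of the gene.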

How the data were processed

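RNA-seq tables comparing WT with each mutant were analysed, and the series' other assays were left out. According to the study's methods and the submitters' processing notes, the authors depleted ribosomal RNA, trimmed reads with Trim Galore 0.5.0, aligned them to TAIR10 with STAR 2.7.0c, discarded multi-mapping reads, removed duplicates with Picard and counted reads on Araport11 with htseq-count. Discarding multi-mapping reads lowers counts of TEs with identical copies. TEs overlapping a TE gene by more than 80% were counted as that gene. The strand option of the counting is not given in the sources used here, so a TE and an overlapping gene may share reads. The values deposited by the authors are a signal, the mean of normalized counts per genotype; their fold changes, statistics and p-values from DESeq2 were not used. The number of other columns of per-sample values left out is 0.

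The reads of each library were derived as the only combination whose weighted sum gives the mean, for 29881 of 29961 features; the other 80 are abundant (7008 or more in some genotype). Recovered features hold 88.4% to 89.7% of the summed means. Counts between libraries of a genotype differed by more than sampling noise (chi-square per degree of freedom 3.35 to 17.5), so none was counted as a duplicate. limma 3.58.1 (R 4.3.3) voom was fitted to all 9 libraries with median-ratio size factors, and tested on simulated data. The members and lists were chosen with earlier results of these data known. Named elements are the 20 highest in WT, those past both thresholds, those in the chromosome 1 span, adjacent pairs, 5 on each side of the threshold and silencing genes past both thresholds. Where genes or elements outside this rule are named, this was done after their values were seen. Alternatives were other filters, scalings, a separate fit, limma-trend, other member thresholds and leaving out each library. A member threshold of 20 was added after seeing the data.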

Additional observations from a re-analysis of the deposited data

Results flagged for a closer look

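For 8 elements, the difference between the mutants was itself past both thresholds in the limma voom test, so that their changes relative to the shared WT libraries differed between the lines. In h2a.w-2 minus h2a.w-1 on the log2 scale, the values were 4.39 for AT5TE49855, 2.81 for AT1TE23420, 1.98 for AT5TE50260, 1.63 for AT1TE53350, 1.51 for AT2TE74400, 1.35 for AT2TE07145, 1.15 for AT3TE51150 and -1.40 for AT4TE33010. AT5TE49855 alone passed under all of the other settings tried.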

How the results depend on the processing

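No paired analysis was possible because the deposited columns carry no replicate numbers. Leaving out each library in turn gave 0 to 1 elements past both thresholds for h2a.w-2 against WT (0 without WT library B), 4 to 8 for h2a.w-1 against WT and 1 to 11 between the mutants. The latter count was 1 without h2a.w-1 library A and 2 without h2a.w-1 library B, and 11 without WT library A. No share over all features is given beside these leave-one-out counts. Dropping the fold threshold gave 12 for h2a.w-1 against WT and 15 between the mutants, and a WT mean of at least 20, chosen after seeing the data, gave 5 between the mutants. Without the most abundant element of each library, the summed reads were 1114 CPM in WT, 1055 CPM for h2a.w-1 and 1233 CPM for h2a.w-2. The median of the 2 elements in the chromosome 1 span (h2a.w-1 minus h2a.w-2, 0.13) ranged from -0.06 to 0.32 with a library left out. Filters, scalings, limma-trend and separate fits moved the counts by less than 1.5 times. Of 1758 values of 37 named elements under other settings, 1711 kept their side of the thresholds, 41 lost and 6 gained a call, and none with a call changed sign. Elements next to the threshold of 5 had 1 to 9 reads in a WT library, which limits the precision of their values.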
